A study of Sus scrofa with 8 samples.

Results

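A set of 9 cytoskeleton genes was chosen by name from the RefSeq annotation of the pig genome (Sscrofa11.1), and the peaks of H3K4me3, H3K27ac and CTCF at and around them were compared in pig embryonic fibroblasts (PEFs). The 9 genes were among 19487 protein-coding genes on chromosomes 1 to 18 and X. VIM, ACTB and ACTG1 form the constitutive set, and the other 6, ACTA2, TAGLN, CNN1, MYL9, TPM1 and TPM2, form the contractile set. The PEFs came from Large White fetuses aged 35 days, were grown in medium with serum, and had no treatment or genetic change named in the labels. ChIP-seq, in which DNA bound to a protein is pulled down with an antibody and sequenced, was done in 2 replicates for each of the 3 targets, so that 6 peak lists were compared. Nothing in the labels says that the replicates came from separate cultures, and the spread between them may be technical.

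Actins, tropomyosins and myosin light chains build the stress fibres of fibroblasts, and vimentin builds their intermediate filaments. Beta and gamma actin are made in nearly every cell type, whereas smooth muscle actin, transgelin and calponin mark smooth muscle cells and the myofibroblasts that fibroblasts become in wounds and on stiff culture dishes. Many of these genes are known targets of serum response factor (SRF), which binds the CArG box, a motif with a pair of C at its left end, a run of A and T, and a pair of G at its right end. H3K4me3 is a mark of promoters, H3K27ac marks active promoters and enhancers, and CTCF binds DNA at insulators and loop anchors.

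The CArG boxes near the starts of the genes are shown first, since genes of both sets held one and few other promoters did. The window ran from 250 bp before to 50 bp after a start and was read on both strands, which for this motif give the same matches. A match was found at the gene start of 4 of the 9 genes and at an internal start of CNN1, whereas 1.54% of the 19487 promoters held one. More common promoter letters, read on both strands, were at more gene starts, with GGGCGG at 7 of the 9 (50.7% of all promoters) and CCAAT at 5 (35.3%). TATAAA, read on the strand of the gene only, was at 0 (6.95%). Each line gives a match of ACTB, ACTG1, MYL9 or CNN1 in capitals with 10 bp of reference sequence on each side, on the strand of the gene.
ACTB: tcgaaagttgCCTTTTATGGctcgagccgc
ACTG1: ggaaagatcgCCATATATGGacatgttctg
MYL9: tgggtcgaagCCAAATAAGGccgggctgct
CNN1: agccgccgagCCATATAAGGcgggctccgg

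The ACTB match at chr3:4090395-4090404 (minus strand) began at -21 bp from the start of this beta actin gene, and the ACTG1 match at chr12:1320319-1320328 (plus strand) began at -36 bp from the start of gamma actin. TAGLN, which codes for the actin-binding protein transgelin, held a pair of matches, which began at -191 and -64 bp from its start. The match of MYL9, the regulatory light chain of smooth muscle myosin, lay at chr17:39788095-39788104 (plus strand) and began at -70 bp. The match of CNN1, which codes for calponin, lay at chr2:70184453-70184462 (plus strand), beginning at -29 bp from an internal start of the gene. All of these matches lay inside H3K4me3 and H3K27ac peaks in both replicates. Within 1 kb of the gene start, 5 of the 9 genes held a match, against 9.76% of all protein-coding genes, and the additional gene was TPM2, with a match beginning at -305 bp. Negative positions lie before the start on the strand of the gene, and TPM1 held a match at -765 bp from its internal start. ACTB held a further match in an intron, beginning at 681 bp, at chr3:4089693-4089702.

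ACTA2, the smooth muscle actin gene, had no match to the plain motif within 1 kb of either of its starts. Its promoter held a pair of sites that depart from the motif by a C or G among the inner bases, and they are in capitals in the 250 bp before the gene start at chr14:100886733-100886982 (minus strand).
ACTA2: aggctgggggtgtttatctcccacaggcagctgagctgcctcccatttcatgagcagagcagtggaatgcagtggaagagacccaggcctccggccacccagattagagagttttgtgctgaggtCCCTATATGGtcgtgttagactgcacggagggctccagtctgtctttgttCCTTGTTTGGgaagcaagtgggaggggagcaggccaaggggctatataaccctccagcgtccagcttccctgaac

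The ACTA2 sites began at -125 and -75 bp and lay inside the H3K4me3 peak in both replicates, and the site at -125 bp lay outside the H3K27ac peak in replicate 1. With this departure allowed, a wider pattern that was chosen after the ACTA2 sequence had been seen, 8.16% of all promoters held a match, as did 5 of the 9 genes at their gene start. VIM and both tropomyosin genes, TPM1 and TPM2, held no match to either pattern in the window of 300 bp. These letters are a description of the reference sequence, and whether SRF binds there was not measured.

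In replicates 1 and 2 the lists held 37932 and 43516 H3K4me3 peaks, then 74983 and 81164 H3K27ac peaks, and 40289 and 44682 CTCF peaks. They give the position of each peak and its fold enrichment over the control, but no read counts, so the depth behind a peak is unknown and no counting error could be given. The median fold enrichment over all peaks was 9.27 and 6.16 for H3K4me3, 4.84 and 4.75 for H3K27ac, and 19.6 and 19.1 for CTCF, so H3K4me3 values differ in scale between the replicates. Of 8 fibroblast marker genes, all 8 had an H3K4me3 and an H3K27ac peak at the start in both replicates. Smooth muscle markers (MYH11, MYOCD, LMOD1, ACTG2) had H3K4me3 in 3 of 4 and H3K27ac in 4 of 4, whereas H3K27ac was at 0 of 4 epithelial, 0 of 4 endothelial, 1 of 4 skeletal muscle and 1 of 3 blood markers. H3K4me3 lay at 4 of 4 epithelial, 1 of 4 endothelial, 2 of 4 skeletal muscle and 1 of 3 blood markers. The shares over all protein-coding genes were 68.9% for H3K4me3 and 60.7% for H3K27ac. H3K27ac fold enrichments at the smooth muscle markers were between 3.27 and 8.49 over both replicates. They were between 6.22 and 37.2 at the fibroblast markers, and 12.4 and 17.0 at the blood marker with a peak. The part of other cell types in the values below was not tested. In such bulk chromatin, a mark in fewer cells and a weaker mark in every cell cannot be told apart.

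H3K4me3 peaks lay within 1 kb of the start of all 9 genes in both replicates, where 68.9% of protein-coding genes had them. By a window of 5 kb or by any transcript start it was also all 9, against 74.7% and 72% of protein-coding genes. The genes differed in how strong and how wide these peaks were. Among the constitutive genes, the VIM peak reached fold enrichments of 39.1 and 45.9 in replicates 1 and 2 and was 10233 and 11138 bp wide, so that it ran over most of the gene. ACTB had a weaker peak, of 37.9 and 18.2, with a width of 7548 and 7617 bp. ACTG1 had the highest fold enrichment of the 9 genes in replicate 1, at 72.4, and 37.0 in replicate 2, and the peak of 7172 and 7254 bp covered the whole gene.

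The contractile genes fell apart into strong and weak promoters. TPM1, a gene for tropomyosins, which lie along actin filaments, had fold enrichments of 54.0 and 35.1 over 8778 and 8749 bp, and its relative TPM2 had 49.2 and 33.4 over 6304 and 6586 bp. TAGLN reached 53.9 and 24.3 over 4951 and 4399 bp. MYL9 was as strong, at 64.6 and 22.5, but narrower, with 3425 and 3338 bp. These 4 genes lay in the range of the constitutive genes in fold enrichment.

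CNN1 and ACTA2 were lower. The CNN1 peak had fold enrichments of 19.9 and 12.3 and was 1754 and 1678 bp wide. The ACTA2 peak had 9.45 and 11.6 and was 1968 and 2039 bp wide. In both replicates these were the 2 lowest values of the 9 genes, in fold enrichment and in width. Among the 13423 protein-coding genes with an H3K4me3 peak at the start in both replicates, 5.51% had a lower mean fold enrichment than ACTA2 and 9.63% a lower one than CNN1, against 91.7% for ACTG1 and between 49.2% and 66.2% for TAGLN, TPM2, VIM, MYL9 and TPM1. ACTB, at 23.6%, was in the lower part in fold enrichment while its peak was among the widest.

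**Figure D1:**
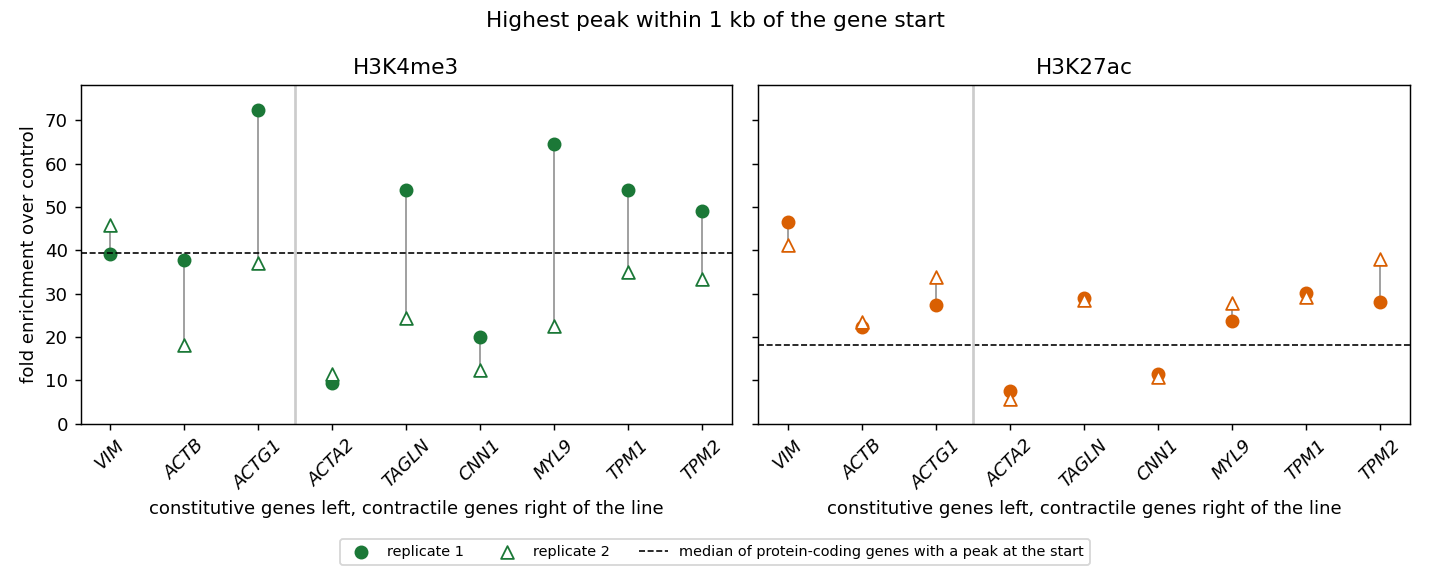
Fold enrichment over the control (vertical axes) of the highest H3K4me3 peak (left) and H3K27ac peak (right) within 1 kb of the start of each of the 9 genes (horizontal axes), with a filled circle for replicate 1 and an open triangle for replicate 2. The dashed lines are medians over the protein-coding genes with such a peak in both replicates, 39.4 for H3K4me3 and 18.1 for H3K27ac. They were taken from the mean of the 2 replicates of each gene. ACTA2 and CNN1 lie below both lines in both replicates. For H3K4me3, every replicate 2 value except that of VIM lies below the line.

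Replicate 2 was the lower one for H3K4me3 in 7 of the 9 genes. Across protein-coding genes the fold enrichment at the start was higher in replicate 2 than in replicate 1 in 269 of 13423 genes, or 2.00%, and VIM and ACTA2 were among these. For H3K27ac, where 81.8% of 11830 genes were higher in replicate 2, VIM, ACTA2, TAGLN, CNN1 and TPM1 were higher in replicate 1. No test was made of this difference between replicates.

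The extent of H3K4me3 around the start was measured as the bases under peaks within 5 kb on each side. VIM had 7354 and 6670 bp, ACTB 7909 and 7617 bp, and ACTG1 7172 and 7254 bp in replicates 1 and 2. TPM2 had 6304 and 6586 bp and TPM1 5891 and 5718 bp, just below the constitutive genes, and the lowest constitutive value exceeded the highest contractile value by less than the difference between the VIM replicates. TAGLN had 4951 and 4399 bp and MYL9 3425 and 3338 bp. CNN1 had 2712 and 2229 bp and ACTA2 1968 and 2039 bp, both under the median of 3074.5 bp of the genes with a peak at the start. In terms of all these genes, ACTB covered more bases than 98.5%, ACTG1 than 97.5% and VIM than 97.1%, whereas CNN1 and ACTA2 covered more than 32.0% and 17.8%.

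Averaged over the genes of a set, H3K4me3 covered 4130 ± 111 bp at contractile and 7329 ± 211 bp at constitutive genes (SD over 2 replicates), a difference of -3199 ± 99.7 bp. In fold enrichment at the start the difference was -9.22 ± 1.81, with 32.5 ± 13.2 for contractile and 41.7 ± 11.4 for constitutive genes. Both differences had the same sign in both replicates and were larger than the spread between them, but the genes of a set are not replicates, and no test was made over 2 libraries. The groups did not overlap in bases within 5 kb in either replicate, and they overlapped in fold enrichment in both. The separation in bases depended on the window. The H3K4me3 peak of TPM1 ran beyond 5 kb and was cut by the window. In full width it exceeded the peaks of ACTB and ACTG1 in both replicates, so the groups overlapped in peak width. In replicate 2 the start peak began at -1975 bp for TPM2 and at -1669 bp for VIM, and both ran beyond 2 kb after the start. Within 2 kb, TPM2 thus covered more bases than VIM there. How often other sets of genes separate in this way was not computed. The difference in fold enrichment rested on ACTA2 and CNN1, since the other 4 contractile genes averaged 55.4 and 28.8 in replicates 1 and 2, against 49.8 and 33.7 for the constitutive genes. In bases within 5 kb those 4 averaged 5077 ± 93.7 bp, below the constitutive 7329 bp. This split of the contractile set was made after the values were seen.

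**Figure D2:**
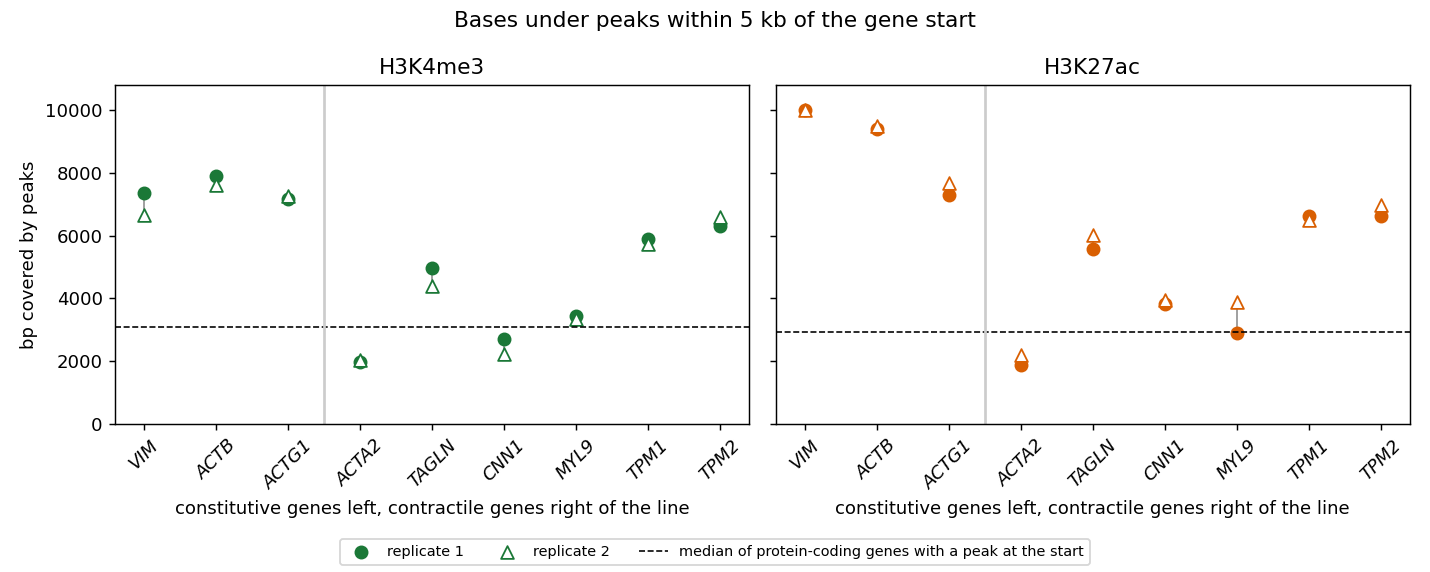
Bases under H3K4me3 peaks (left) and H3K27ac peaks (right) within 5 kb on each side of the gene start (vertical axes, bp) for each of the 9 genes, with replicate 1 as a filled circle and replicate 2 as an open triangle. Constitutive genes stand left of the grey line, above every contractile gene in the same replicate. The dashed lines are the medians of genes with a peak at the start, 3074.5 and 2918.75 bp, taken from the mean of the 2 replicates.

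H3K27ac peaks also lay within 1 kb of the start of all 9 genes in both replicates, where 60.7% of protein-coding genes had them, and all 9 had them by a window of 5 kb or any transcript start too, against 66.9% and 63.7%. VIM stood first, with fold enrichments of 46.6 and 41.2 and a single peak of 21033 and 23434 bp that filled the whole window of 10001 bp around the start. Of the 11830 genes with such a peak in both replicates, 98.7% had a lower mean fold enrichment than VIM. ACTB had 22.4 and 23.4 over 9920 and 10539 bp, and ACTG1 had 27.3 and 33.9 over 7294 and 7690 bp.

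Among the contractile genes, TPM2 had H3K27ac fold enrichments of 28.1 and 38.1, TPM1 of 30.2 and 29.3, and TAGLN of 28.9 and 28.5. MYL9 followed with 23.8 and 27.8. CNN1 had 11.5 and 10.8 and ACTA2 had 7.47 and 5.81, again the 2 lowest of the 9 genes in both replicates. The TPM1 peak was 11057 and 10039 bp wide, wider than those of ACTB in replicate 1 and of ACTG1 in both, while the ACTA2 peak was 1863 and 2188 bp wide.

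Within 5 kb of the start, H3K27ac covered 9410 and 9497 bp at ACTB, 7294 and 7690 bp at ACTG1, 6630 and 6957 bp at TPM2, 6638 and 6503 bp at TPM1, and 5560 and 6009 bp at TAGLN. CNN1, with 3805 and 3929 bp, covered more than its H3K4me3 did, with a wider peak at the start and a wider one upstream. MYL9 had 2888 and 3869 bp and ACTA2 1863 and 2188 bp. The mean over contractile genes was 4737 ± 244 bp and that over constitutive genes 8982 ± 114 bp, which makes a difference of -4246 ± 130 bp. In fold enrichment the contractile genes had 22.5 ± 1.22 and the constitutive genes 32.5 ± 0.541, a difference of -9.95 ± 0.676. Without ACTA2 and CNN1 the contractile genes averaged 29.3 ± 2.25 in fold enrichment and 5632 ± 287 bp.

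Gene bodies, taken here without the 1 kb after the start, were covered to different degrees. H3K27ac covered 100% of the rest of ACTG1 in both replicates, 79.3% and 76.8% of VIM, and 66.7% and 68.4% of ACTB. TAGLN with 77.3% and 75.4% and TPM2 with 68.3% and 71.8% lay in the same range, TPM1 with 50.2% and 51.2% was lower over its much longer body, and MYL9 had 19.2% and 38.2%. CNN1 had 11.3% and 13.8% and ACTA2 4.38% and 4.79%. The contractile mean of 40.5 ± 2.89% was below the constitutive mean of 81.9 ± 0.179% by 41.4 ± 3.07 percentage points, and gene length differed between the members, from 2865 bp for ACTG1 to 29110 bp for TPM1.

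Several of the genes start at more than 1 place in the annotation, and the marks were placed on these starts. The outermost start of CNN1, with 1 transcript, lay at the edge of its H3K4me3 peak, which began 9 and 2 bp before it. The summits lay 62 and 136 bp after an internal start, with 2 transcripts, 1112 bp downstream, and the H3K27ac summits lay 44 and 123 bp after it. This is the start with the CArG box shown above. TPM1 had 16 transcripts from its outermost start and 8 from a start 5362 bp further on, and 1 H3K4me3 peak spanned both in each replicate, reaching 7887 and 8031 bp into the gene. ACTA2 also had an internal start, 3585 bp downstream with 1 transcript, and there the nearest H3K4me3 peak was 1960 and 1914 bp away and the nearest H3K27ac peak 1815 and 1743 bp away. TAGLN and TPM2 had internal starts at 2154 and 639 bp, both under the same peaks as the outermost ones.

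Peaks further out were read within 50 kb of each gene. H3K27ac peaks further out in replicate 1 that overlapped such a peak of replicate 2 were counted. They numbered 11 at TPM2, 9 at TPM1, 8 each at VIM and ACTG1, and 7 each at ACTB and TAGLN. CNN1 had 6, ACTA2 5 and MYL9 3. Some of these peaks sat at the starts of neighbouring genes, and with no annotated start of any gene within 1 kb there were 9 at TPM1, 7 each at VIM, ACTG1 and TPM2, 4 each at ACTA2 and TAGLN, 3 each at ACTB and CNN1, and 2 at MYL9. At VIM a single replicate 2 peak, with its summit at -35585 bp, overlapped a pair of replicate 1 peaks, and both were counted. The number of H3K27ac peaks in the flanks was 8.25 ± 2.00 for contractile and 8.33 for constitutive genes, where the latter was the same in both replicates. The difference, -0.083 ± 2.00, was smaller than the spread between replicates, and it was -1.50 in replicate 1 and 1.33 in replicate 2.

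ACTA2 and CNN1, with the weakest peaks at their starts, each had distal H3K27ac peaks stronger than the peak at the start. At ACTA2 a peak with its summit at -17420 and -17526 bp had fold enrichments of 25.7 and 22.2, above the 7.47 and 5.81 at the start. It lay at chr14:100900327-100905888 (both replicates joined), where H3K4me3 was listed in replicate 2 with 5.02 and not in replicate 1, and no annotated start was within 1 kb. A peak of 20.3 and 20.6 further out lay at the start of FAS, which codes for a death receptor. At CNN1 a peak with its summit at -2462 and -2389 bp had 18.2 and 23.0, at chr2:70180329-70181865, and a peak 19948 and 19953 bp downstream of the start had 17.2 and 19.9996, at chr2:70202664-70204243, against 11.5 and 10.8 at the start. Both carried weak H3K4me3, with 9.03 and 4.33 upstream and 4.33 and 3.93 downstream. The upstream one also carried CTCF of 37.0 and 41.2, and it is part of the bases counted within 5 kb of the start. Of the 9 genes, ACTA2 with 1 and CNN1 with 2 had distal H3K27ac peaks above the start in both replicates and away from annotated starts, and the other 7 genes had 0. This count depends on the start peak, which was lowest at these 2 genes, and no share over all protein-coding genes was computed. Distal peaks away from annotated starts reached 18.1 and 25.8 at ACTG1 and 19.1 and 18.2 at ACTB, below the higher start peaks of those genes. At ACTB the peak of 28.8 and 37.4 that exceeded the start lay at the start of FSCN1, which codes for the actin bundler fascin.

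**Figure D3:**
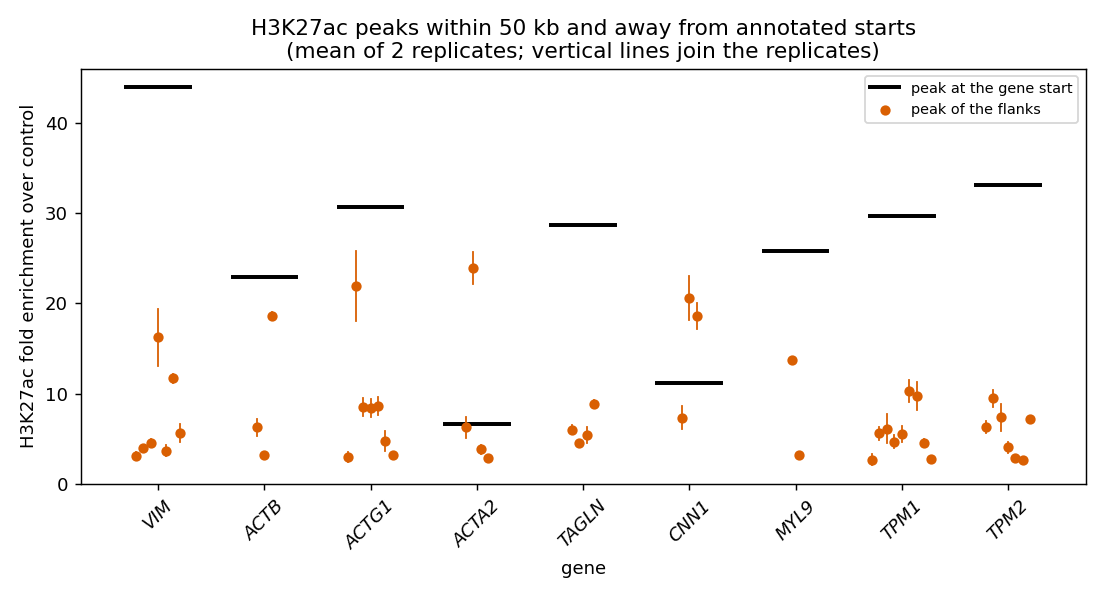
H3K27ac fold enrichment over the control (vertical axis) of the peaks within 50 kb that overlap between replicates and have no annotated gene start within 1 kb, for each of the 9 genes (horizontal axis). Points are means of 2 replicates, vertical lines join the replicates, and the black bars mark the mean of the peak at the gene start, which lies below 1 distal peak at ACTA2 and below 2 at CNN1.

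TPM1 had no other protein-coding gene start within 50 kb, and a row of H3K27ac peaks stretched along its upstream side. From -12188 to -47845 bp in replicate 1 there were 7 of them, with fold enrichments between 2.61 and 11.5, and the strongest in that replicate lay at -24629 bp. VIM had peaks of 19.4 and 13.1 at -18601 and -18585 bp and of 25.7 and 33.3 at -26016 and -25842 bp, the latter near a start of TRDMT1, which codes for a tRNA methyltransferase. At ACTB, peaks at -13337, -18234 and -24608 bp in replicate 1 had H3K27ac of 19.1, 12.9 and 12.1 and H3K4me3 of 22.7, 41.0 and 45.8, and the outer 2 lay at starts of LOC102161175 and LOC106509624, which are annotated as long non-coding RNAs. ACTG1 had a region at -6469 and -6428 bp with H3K27ac of 18.1 and 25.8, H3K4me3 of 43.5 and 17.5, CTCF of 24.2 and 30.8, and no annotated start within 1 kb. The start of the neighbouring gene FSCN2, at -8793 bp, lay only just beyond that limit. MYL9 had the fewest, and its strongest peak away from starts, of 13.7 in both replicates, lay at -46205 and -46178 bp.

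**Figure D4:**
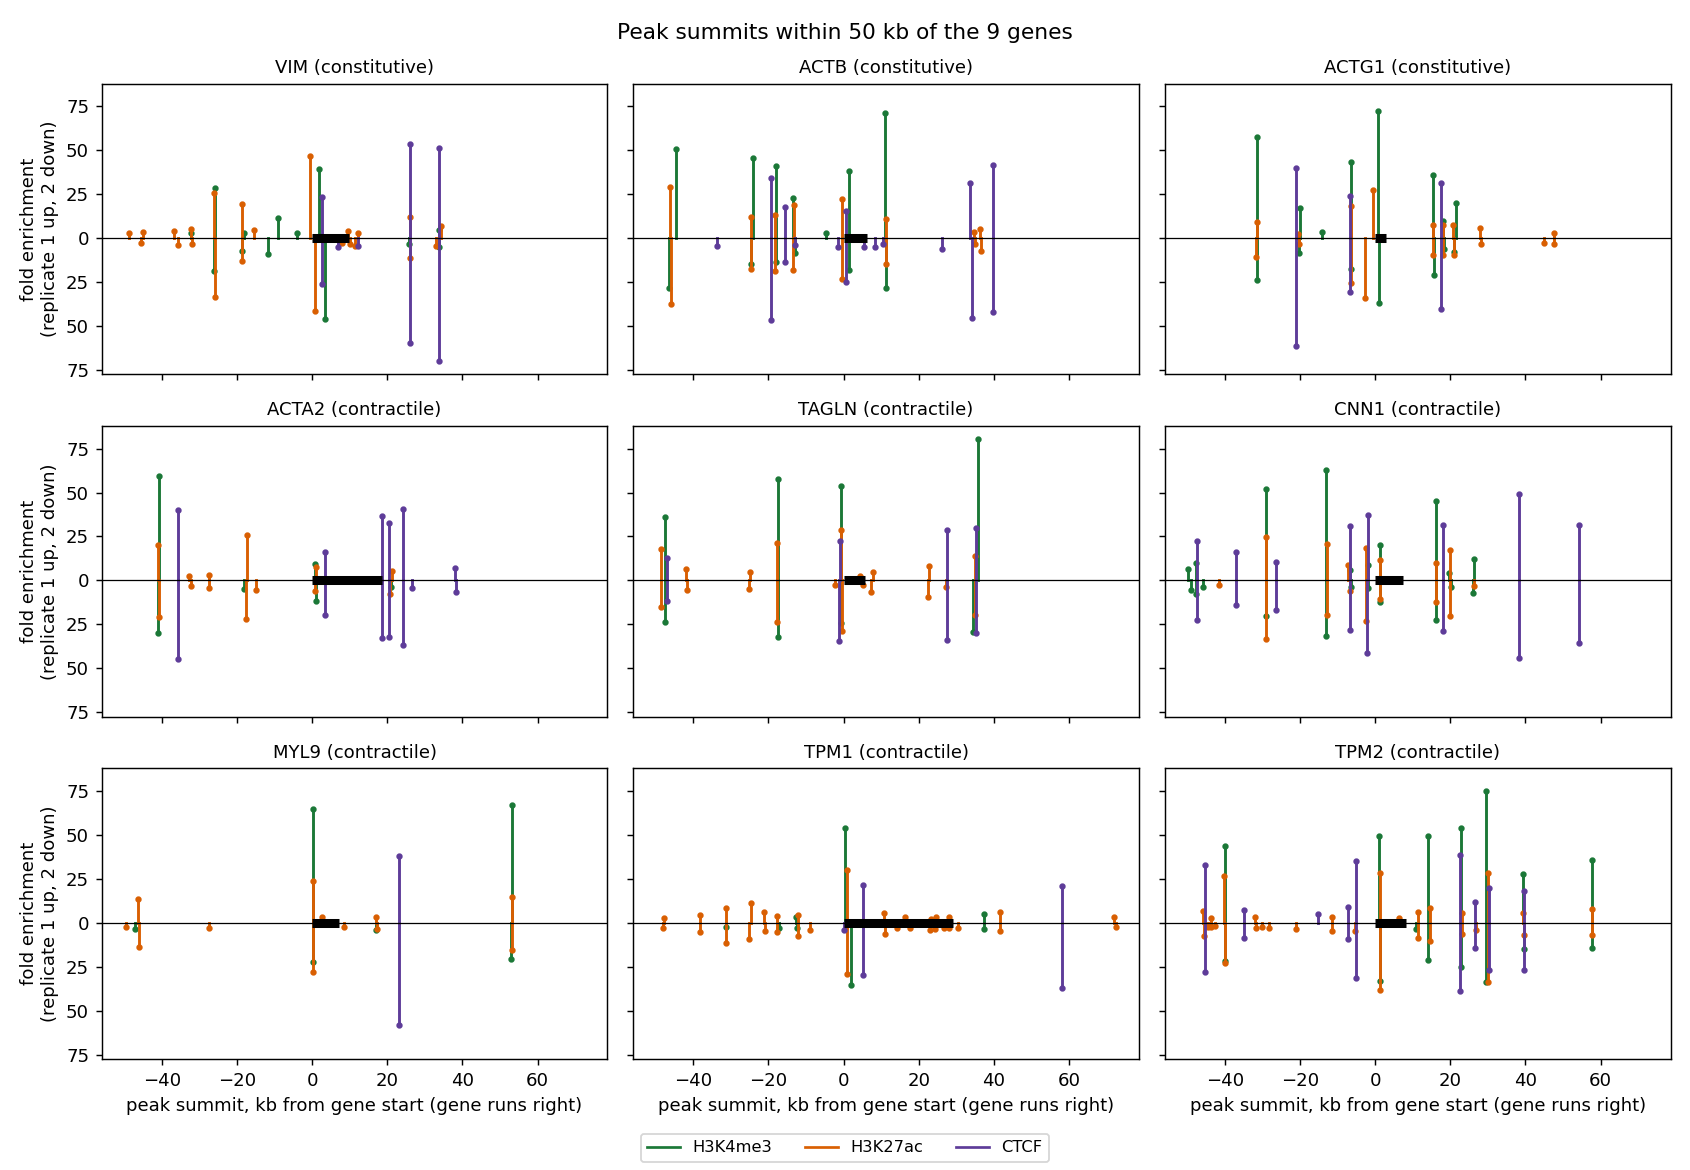
Summits of H3K4me3 (green), H3K27ac (orange) and CTCF (purple) peaks in and within 50 kb of the 9 genes, by distance from the gene start (horizontal axes, kb, each gene drawn from left to right as a black bar) and fold enrichment over the control (vertical axes, replicate 1 upwards and replicate 2 downwards). The upstream H3K27ac peak of ACTA2, the upstream row at TPM1 and the 8 CTCF peaks around CNN1 can be seen in both replicates.

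CTCF peaks lay within 1 kb of the start in both replicates at 2 of the 9 genes, ACTB and TAGLN, a share near the 17.9% of all protein-coding genes. Within 5 kb it was 7 of the 9 genes, against 35% of protein-coding genes, and within 1 kb of any transcript start 4 of the 9, against 20.8%. The ACTB peak lay in an intron, with its summit 734 and 764 bp after the start and fold enrichments of 15.2 and 24.8. The TAGLN peak lay upstream, with its summit 1097 and 1101 bp before the start, its near edge 772 and 743 bp from it, and had 22.5 and 34.2. TPM1 had a weak peak of 4.25 at its start in replicate 2. At the internal starts, CTCF was stronger, with 21.2 and 29.8 at TPM1, where the summits lay at -170 and -152 bp from that start, and 16.1 and 19.6 at ACTA2, where they lay at -98 and -106 bp.

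Inside VIM a CTCF peak lay in an intron, with its summit 2586 and 2585 bp after the start and 23.4 and 25.9 in fold enrichment. ACTA2 had a peak of 36.7 and 32.8 just 53 and 58 bp beyond its end. Upstream, the nearest CTCF summit was at 2033 and 2053 bp for CNN1, 5001 and 5007 bp for TPM2, 6712 and 6671 bp for ACTG1 and 35567 and 35560 bp for ACTA2. It was much further off for MYL9, with 101107 and 101110 bp, and for TPM1, with 138801 and 138820 bp, while for VIM it was at 236253 bp in replicate 1 and 173089 bp in replicate 2, where these peaks had 6.75 and 5.002. For ACTB it was at 15596 bp in replicate 1, and a peak of 4.82 in replicate 2 lay at 1470 bp.

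CTCF peaks in the flanks numbered 9 and 8 at TPM2 and 8 and 8 at CNN1, and there was 1 in each replicate at MYL9 and at TPM1. ACTB had 4 in replicate 1 and 10 in replicate 2, and the 6 that replicate 2 added had fold enrichments between 3.32 and 6.33. The contractile and constitutive means were 4.33 and 4.17 ± 1.65, where the contractile value was the same in both replicates. Their difference of 0.167 ± 1.65 lay within the spread between replicates.

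To see which of these CTCF peaks held the core of the CTCF motif, the letters CCNNNAGNNGGC (N for any base) were searched on both strands within 100 bp of each summit. They were found in 39.1% of the 39854 and 37.3% of the 44209 CTCF peaks on the chromosomes used, and in 2.76% and 2.69% of windows of the same length 1 kb away from them. In and within 50 kb of the 9 genes, 19 of 41 peaks in replicate 1 and 21 of 51 in replicate 2 held the core, shares near those of all peaks. CNN1 had it in 6 of 8 peaks and TPM2 in 0 of 9 in replicate 1. A choice of 4 sites, each under a CTCF peak in both replicates and in a gene or upstream of it, is printed with the core in capitals, on the strand of the core, to place the motif against the promoters.
VIM, intron: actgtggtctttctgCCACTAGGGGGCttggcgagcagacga
ACTB, intron: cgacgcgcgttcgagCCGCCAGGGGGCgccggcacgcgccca
TPM1, internal start: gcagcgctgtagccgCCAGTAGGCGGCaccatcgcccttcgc
CNN1, upstream: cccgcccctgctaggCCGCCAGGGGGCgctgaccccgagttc

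The VIM site (chr10:43518991-43519032, minus strand) and the ACTB site (chr3:4089614-4089655, plus strand) point against their genes. The TPM1 site (chr1:109010876-109010917, minus strand) and the CNN1 site (chr2:70181297-70181338, plus strand) point along theirs. The CTCF peaks next to the TAGLN start and at the internal start and the end of ACTA2 did not hold these letters within 100 bp of the summit, which says nothing on whether CTCF binds there through other letters.

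The base composition of the starts differed as well. Within 500 bp of the gene start, ACTG1 held 151 CpG dinucleotides and ACTB 100, against a median of 54 for protein-coding genes, and 99.2% and 86.8% of genes held fewer. TPM1 with 68, MYL9 with 67 and TPM2 with 64 were a little above the median, VIM with 40 and TAGLN with 38 were below it, and CNN1 with 21 and ACTA2 with 17 were the lowest of the 9. By this count at the outermost start, the genes with the fewest CpG were also those with the fewest bases under H3K4me3. VIM departed from this order, with fewer CpG than the median gene and more bases under H3K4me3 than 97.1% of genes with a peak, and so did TAGLN, with more bases than 80.5%. For CNN1, the internal start next to its H3K4me3 summits lies 1112 bp downstream of the outermost start. It is outside the window used, and CpG around it were not counted. The values are given as a description of 9 genes.

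**Figure D5:**
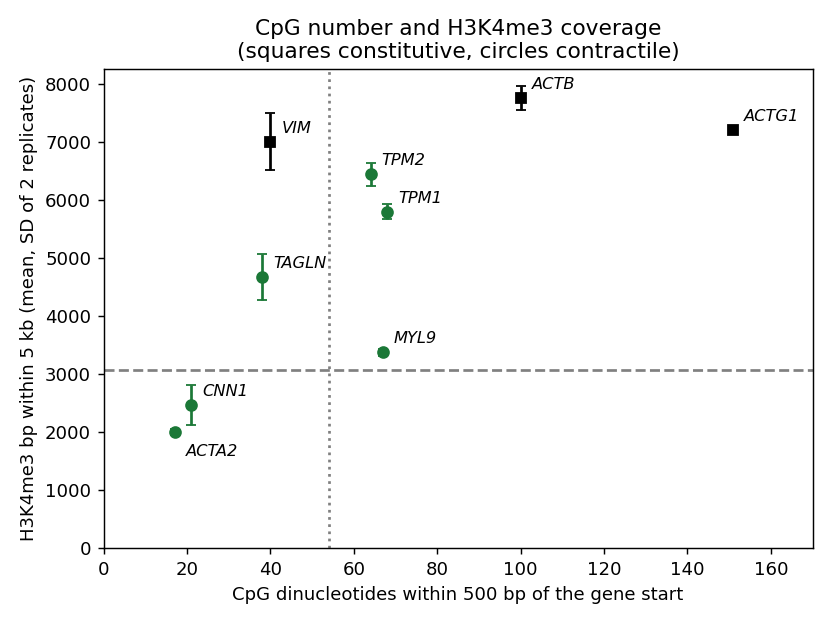
CpG dinucleotides within 500 bp of the gene start (horizontal axis) and bases under H3K4me3 peaks within 5 kb (vertical axis, bp, mean with SD of 2 replicates) for the 3 constitutive genes (squares) and the 6 contractile genes (circles). The dotted and dashed lines mark the medians of 54 CpG over protein-coding genes and of 3074.5 bp over those with a peak, and ACTA2 and CNN1 sit in the lower left corner.

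A list of 32 other genes of the cytoskeleton, the contractile apparatus and the SRF pathway was read in the same way, and 30 were found in the annotation. H3K4me3 peaks lay at the gene start in both replicates at 22 of the 30, H3K27ac peaks at 22 and CTCF peaks at 7, where the shares over all protein-coding genes were 68.9%, 60.7% and 17.9%. The 3 with the most bases under H3K4me3 within 5 kb, by the mean of the replicates, were the actin regulators PFN1 with 8902 and 7256 bp and CFL1 with 7111 and 6905 bp, and ACTN1, which codes for an actin crosslinker, with 7121 and 6432 bp. PFN1 exceeded the constitutive genes in replicate 1, and ACTN1 lay below them in both replicates, as did CFL1 in replicate 1. No H3K4me3 peak lay at the gene start of TPM3, CALD1, MRTFA, MRTFB, TNNT2 and MYH7 in either replicate. When every annotated transcript start was used, TPM3 had fold enrichments of 53.8 and 29.4, CALD1 of 49.6 and 21.96, MRTFA of 54.4 and 22.5 and MRTFB of 63.6 and 28.4, and 27 of the 30 genes had a peak in both replicates, against 72% of protein-coding genes by the same rule. TNNT2 and MYH7, which code for proteins of heart muscle, had no H3K4me3 or H3K27ac peak at any start. They do not stand for all striated muscle genes of the list. Of those 5, H3K4me3 lay at the gene start in both replicates at 3, and H3K27ac at 1.

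Each of the 9 genes was also paired with the gene outside these lists whose coverage of the 3 marks was most alike, by the distance between log2(bp within 5 kb + 1) over the 6 libraries. The distance was smallest for ACTG1 with SZRD1, at 0.040, and MYL9 with NOL4L, at 0.102. The others were TPM2 with RYK (0.174), TPM1 with RRM2 (0.178), TAGLN with DUT (0.188), VIM with CDKN1A (0.203), ACTA2 with STXBP2 (0.235), CNN1 with KLHDC9 (0.264) and ACTB with LOC106506784 (0.317). Members and genes of the lists were left out of the search. Of 23 protein-coding neighbours whose start lay within 50 kb of a member, CNN1 had 5, all with H3K4me3 at the start in both replicates, TPM2 had 7, of which 5 did, TAGLN had 4, of which 4 did, and TPM1 had 0. The mark was at 2 of 2 for ACTB, 1 of 2 for ACTG1, 1 of 1 each for ACTA2 and MYL9, and 0 of 1 for VIM. Over all protein-coding genes the share was 68.9%. These calls are for the outermost start of each gene. The VIM neighbour, TRDMT1, had H3K4me3 of 28.2 and 18.7 near another of its annotated starts.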

How the data were processed

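Reads of PEF ChIP-seq libraries had been aligned by the authors using bowtie2, with samtools keeping uniquely mapped fragments and Picard taking out duplicates, and MACS2 gave narrow peaks for each library. Tool versions, and which input served as control in each call, are not given in the sources used here. The submitters' processing notes name Sscrofa11.1, and every peak lay within the chromosome ends of that assembly. In the deposited lists each peak has an integer score from the authors' peak caller. It also has a fold enrichment, a deposited ratio to control signal. The p-value and q-value of each peak were deposited as −log10 values. The lowest −log10 q-value was between 1.30 and 1.36, a looser limit than the methods state, and the lists were used as deposited, without read counts. The 2 input libraries were not analysed here.

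A gene start is the outermost 5′ end of the RefSeq gene, and starts within 500 bp were joined into 1 start. Peaks were assigned when they overlapped the window by at least 1 bp. A gene's fold enrichment is that of its highest peak within 1 kb. Values are given per replicate and as mean ± SD of 2 replicates, and no test was made, since genes are not replicates and each mark has 2 libraries. Genes named outside the members were those of the list without H3K4me3 at the start, the 3 with the most H3K4me3 and the gene most alike each member. The members and lists were chosen with earlier results of these data known, and the motifs, the CpG count and the comparison of distal with start peaks were chosen after the peaks had been seen. Overlap counts were checked by brute force on simulated intervals. Python 3.11.15 and matplotlib 3.10.9 were used. The promoter sequence of TAGLN is not reported here.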

Additional observations from a re-analysis of the deposited data

How the results depend on the processing

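All 9 genes kept H3K4me3 and H3K27ac at the start under every alternative run. CTCF at the start in both replicates went from 2 genes to 7 with a window of 5 kb (35% of protein-coding genes) and to 4 with any transcript start (20.8%), and from single replicates it was 2 to 3. The difference in H3K4me3 bases (contractile minus constitutive) was -3040 bp with a −log10 q-value of at least 5 and with peaks shared by 50%, and -1163 bp within 2 kb, and -3270 to -3129 bp in single replicates. For H3K27ac bases it was -4476 bp with the stricter q-value, -1038 bp within 2 kb and -4338 to -4154 bp in single replicates. H3K27ac body coverage differed by -46.1 points with the stricter q-value, -37.8 points with the 1 kb after the start included and -43.6 to -39.2 points in single replicates. Fold enrichment differed by -10.5 to -7.94 for H3K4me3 and by -10.4 to -9.47 for H3K27ac in single replicates. The flank counts did not hold a direction: H3K27ac gave -2.17 within 100 kb and -1.5 to 1.33 in single replicates, and CTCF gave -1 within 25 kb, -0.917 within 100 kb, -0.333 away from other genes' starts and -1 to 1.33 in single replicates. The cause was not tested. Of 55 alternatives, 40 gave the same reading, 10 moved and 5 reversed. A difference was read as the same when it changed by less than the SD over 2 replicates, and a count when it stayed within 1.5-fold. A difference from a single replicate always lies within that SD, so it could only be the same or reversed. Wider windows, added starts and single replicates could not lower a count of 9 genes. The number of same readings is therefore no measure of how stable the results are. Each set difference was taken within a library, which pairs the sets by library, and no paired test was made over 2 libraries. The lists hold no read counts, so depth limits could not be set, and each result rests on 2 libraries for each mark.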
